A study of Mus musculus with 4 samples.

Results

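The genes described here were 9 members of cytokine signalling through Janus kinases: the feedback inhibitors Cish, Socs1, Socs2 and Socs3, the kinase Jak2, and the transcription factors Stat3, Stat5a, Stat5b and Stat6. They were listed by name, and every probe set that the platform annotation gave to a single one of them was taken, which yielded 18 of 22626 tested probe sets and 9 of 12393 genes. Each member had between 1 and 3 probe sets, and 7 of the 9 had more than 1. Expression was measured in Langerhans cells, the dendritic cells that present antigen in the epidermis, on Affymetrix MOE430A arrays. The groups were 2 arrays from AhR exon2 deficient mice, whose aryl hydrocarbon receptor (AhR) gene lacks that exon, and 2 arrays from wildtype C57BL/6 mice, all untreated. In both groups ear skin was the source, tissue or cells were kept for 16 hours in culture, and Langerhans cells were then enriched on a density gradient and sorted as living MHC class II-positive cells to over 95% purity. The labels name the arrays of each genotype as biological replicates but give neither the number of mice behind an array nor the strain background or age of the deficient animals, so p-values measure only the spread between these arrays. The deletion is described for the whole mouse, with no cell type named, so other epidermal cells in the culture carried it too.

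A cytokine that binds its receptor activates Janus kinases, which phosphorylate STAT proteins. These enter the nucleus as dimers and switch on target genes. Among the targets are genes of the SOCS family, whose products bind receptors or kinases, block signalling and recruit an elongin-cullin ubiquitin ligase, and so close a feedback loop. In dendritic cells, GM-CSF signals mainly through Jak2 and Stat5, interleukin-4 through Stat6, and interleukin-6 and interleukin-10 through Stat3. AhR is a transcription factor that small ligands activate, and Socs2 has been reported as one of its targets. The comparison asks how these transcripts differ in Langerhans cells that lack the receptor.

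The promoters shown next are those of the members whose letters held a STAT motif or the longer AhR motif. RefSeq promoters of GRCm38.p6, each running from 250 bases before to 50 bases after an annotated start, were at hand for 8 of the 9 members (10 promoters). The member without one was Socs2, so its promoter was not searched for any motif. Both strands were searched for the STAT motif known as GAS (TTCNNNGAA), for the core of the xenobiotic response element bound by AhR and its partner (GCGTG), and for a longer form of that element (TNGCGTG), which contains the core. The GAS motif was in 8.30% of all 32851 promoters, the XRE core in 32.4% and the longer XRE in 5.07%. Among the members' promoters, 2 held GAS, 3 held the XRE core and 1 held the longer XRE. In the sequences below, 5′ to 3′ on the gene's strand, capitals mark GAS in the first and second and the longer XRE in the last.
Cish, chr9:107296409-107296708, plus strand: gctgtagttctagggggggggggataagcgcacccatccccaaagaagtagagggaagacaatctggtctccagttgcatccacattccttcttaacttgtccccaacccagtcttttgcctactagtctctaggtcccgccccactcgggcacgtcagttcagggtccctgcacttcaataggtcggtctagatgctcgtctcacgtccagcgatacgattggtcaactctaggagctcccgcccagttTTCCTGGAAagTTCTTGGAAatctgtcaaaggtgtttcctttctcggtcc
Socs3, chr11:117969317-117969616, minus strand: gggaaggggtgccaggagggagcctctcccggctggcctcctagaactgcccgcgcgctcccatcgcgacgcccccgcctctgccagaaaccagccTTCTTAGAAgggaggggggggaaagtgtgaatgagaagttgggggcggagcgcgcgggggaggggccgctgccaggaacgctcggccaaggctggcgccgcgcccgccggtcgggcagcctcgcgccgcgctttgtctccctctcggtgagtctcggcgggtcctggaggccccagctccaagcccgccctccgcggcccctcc
Jak2, chr19:29251553-29251852, plus strand: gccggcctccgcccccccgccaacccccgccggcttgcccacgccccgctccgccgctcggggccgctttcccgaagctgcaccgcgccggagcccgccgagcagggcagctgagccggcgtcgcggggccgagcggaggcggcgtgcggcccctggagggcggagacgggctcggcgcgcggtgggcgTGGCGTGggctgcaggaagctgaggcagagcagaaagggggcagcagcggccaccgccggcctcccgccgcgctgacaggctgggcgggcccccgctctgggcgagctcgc

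Cish held 2 GAS matches, at bases 1 to 9 and 12 to 20 from the annotated start. The single match of Socs3 lay at bases -154 to -146. Jak2 held 4 matches to the XRE core, and the longer form lay at bases -61 to -55. Stat3 held 1 match to the XRE core, as did 1 of the 2 promoters of Stat5b. A match describes the letters of this window only. The array measurements that follow do not show binding.

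No member passed in limma's test over all probe sets: 0 of 18 probe sets were called at an adjusted p under 0.05, where 0.0177% of all tested probe sets were called. The members' adjusted p-values lay between 0.868 and 0.996. At an unadjusted p under 0.05 there were also 0 members, against 6.00% of all probe sets. The 2 AhR-deficient arrays lay above both wild-type arrays for 4 of the 18 probe sets and below them for 1, where 19.0% of all probe sets were higher without overlap and 16.2% lower. With 2 arrays against 2, an exact permutation test of a single probe set, two-sided, cannot give a p below 0.333. In sorted cells as a bulk sample, fewer cells of a type and less RNA per cell cannot be told apart.

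**Figure D1:**
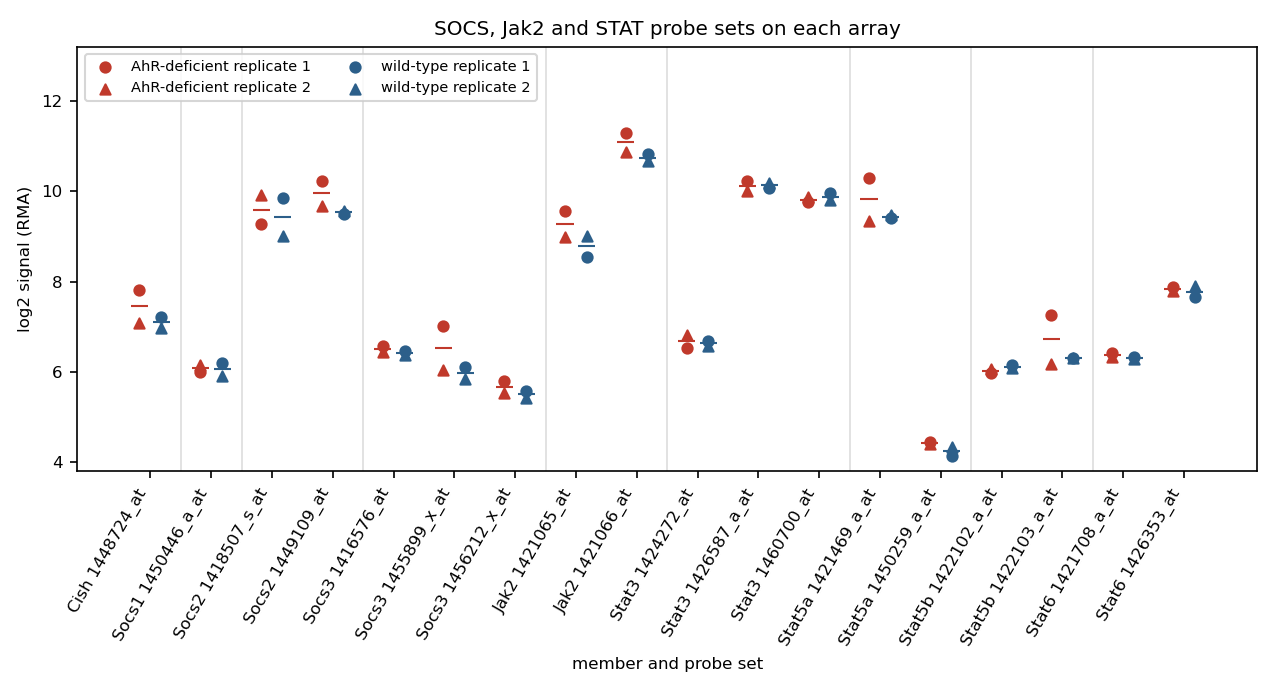
Log2 signal (RMA) of each member probe set on each of the 4 arrays, AhR-deficient in red and wild-type in blue, with circles for replicate 1, triangles for replicate 2 and short lines for the mean of 2 arrays. The circles of AhR-deficient replicate 1 are the highest of the 4 points for 12 of the 18 probe sets.

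Cish, a SOCS-family inhibitor that is induced by Stat5 and restrains it, had a log2 signal of 7.83 and 7.08 in AhR-deficient cells, against 7.22 and 6.98 in wild-type cells. One AhR-deficient array was the highest of all and the other lay between the wild-type arrays, so the groups overlapped. The log2 difference was 0.35 (SE 0.28, 95% interval -0.40 to 1.10; limma adjusted p = 0.907).

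Socs2, which restrains growth hormone and Stat5 signalling, was measured by a pair of probe sets that ordered the arrays differently. The probe set 1449109_at read 10.24 and 9.68 in AhR-deficient cells, against 9.51 and 9.57 in wild-type cells. Both AhR-deficient arrays lay above both wild-type arrays, although the AhR-deficient arrays differed from each other by 0.56 on the log2 scale. Its log2 difference of 0.42 corresponds to 1.34-fold (SE 0.20, 95% interval -0.14 to 0.97; limma adjusted p = 0.868), the smallest adjusted p among the members. The probe set 1418507_s_at, whose suffix marks probes shared by several transcripts, read 9.28 and 9.91 in AhR-deficient cells, against 9.85 and 9.01 in wild-type cells. Here AhR-deficient replicate 1 and wild-type replicate 2 were the low arrays, and the groups overlapped. The log2 difference was 0.16 (SE 0.37, 95% interval -0.83 to 1.16; limma adjusted p = 0.979). It turned to -0.15 without AhR-deficient replicate 2 and to -0.26 without wild-type replicate 2.

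Socs1 and Socs3 are the family's strongest brakes on Janus kinases, Socs1 on interferon signals and Socs3 on gp130 receptors. Socs1 read 6.01 and 6.16 in AhR-deficient cells, against 6.21 and 5.92 in wild-type cells. The arrays interleaved, and the log2 difference was 0.02 (SE 0.13, 95% interval -0.34 to 0.38). Of the 3 probe sets for Socs3, 1416576_at read 6.57 and 6.44 in AhR-deficient cells, against 6.47 and 6.38 in wild-type cells, a log2 difference of 0.08 (SE 0.09). These 4 values nearly coincide. The probe set 1455899_x_at, whose suffix marks probes that can bind other transcripts, read 7.02 and 6.05 in AhR-deficient cells, against 6.11 and 5.84 in wild-type cells. Only AhR-deficient replicate 1 stood high, and the log2 difference of 0.56, the largest among the 18 probe sets, had an SE of 0.35 and became 0.07 without that array. The third, 1456212_x_at, differed by 0.16 (SE 0.13) and lay below the median signal of all probe sets.

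Jak2, the kinase on the receptors for GM-CSF, interferon-gamma and growth hormone, gave differences of similar size by both of its probe sets. The probe set 1421066_at read 11.30 and 10.87 in AhR-deficient cells, against 10.82 and 10.68 in wild-type cells. The groups did not overlap, but the lower AhR-deficient array stood only slightly above the higher wild-type array. The log2 difference was 0.34 (SE 0.17, 95% interval -0.13 to 0.81; limma adjusted p = 0.870). The probe set 1421065_at read 9.57 and 8.99 in AhR-deficient cells, against 8.56 and 9.01 in wild-type cells, a log2 difference of 0.49 (SE 0.26, 95% interval -0.21 to 1.20; limma adjusted p = 0.873). One wild-type array lay just above the lower AhR-deficient one. The first difference was 0.12 and the second 0.20 without AhR-deficient replicate 1.

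Stat3 and Stat6 differed little between genotypes by any of their probe sets. Stat3, the mediator of gp130 and interleukin-10 signals, read 10.23 and 10.0015 in AhR-deficient cells, against 10.08 and 10.20 in wild-type cells by its brightest probe set, 1426587_a_at. The log2 difference was -0.02 (SE 0.12, 95% interval -0.33 to 0.29), and the other probe sets differed by 0.04 (1424272_at) and -0.07 (1460700_at). All 3 overlapped between genotypes. Stat6, the mediator of interleukin-4 and interleukin-13 signals, read 7.88 and 7.79 in AhR-deficient cells, against 7.66 and 7.90 in wild-type cells by 1426353_at. Its log2 difference of 0.05 (SE 0.11, 95% interval -0.25 to 0.36) came from overlapping arrays. By 1421708_a_at it read 6.43 and 6.34 in AhR-deficient cells, against 6.33 and 6.28 in wild-type cells. These arrays did not overlap, yet they differed by only 0.08 (SE 0.08, 95% interval -0.14 to 0.30).

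Stat5a and Stat5b are near-identical partners, and in the RefSeq gene table Stat5b, Stat5a and Stat3 are consecutive protein-coding genes on chromosome 11. Stat5a read 10.31 and 9.35 in AhR-deficient cells, against 9.41 and 9.47 in wild-type cells by 1421469_a_at. One AhR-deficient array was high and the other was the lowest of the 4, and the log2 difference was 0.38 (SE 0.34, 95% interval -0.53 to 1.30). Stat5b followed the same order by 1422103_a_at, with 7.27 and 6.18 in AhR-deficient cells against 6.31 and 6.31 in wild-type cells. The AhR-deficient arrays were 1.09 apart, the widest gap within a genotype among the 18 probe sets, and the log2 difference was 0.41 (SE 0.38, 95% interval -0.61 to 1.44). The remaining Stat5b probe set, 1422102_a_at, read 5.97 and 6.06 in AhR-deficient cells, against 6.15 and 6.08 in wild-type cells. It was the 1 member probe set lower without overlap, by a log2 difference of -0.10 (SE 0.08). The remaining Stat5a probe set, 1450259_a_at, lay below the median signal, at 4.45 and 4.41 in AhR-deficient cells, against 4.15 and 4.34 in wild-type cells, without overlap (log2 difference 0.19, SE 0.10). Stat5a and Stat5b messages are similar enough that probes could share signal, and probe sequences were not used here.

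**Figure D2:**
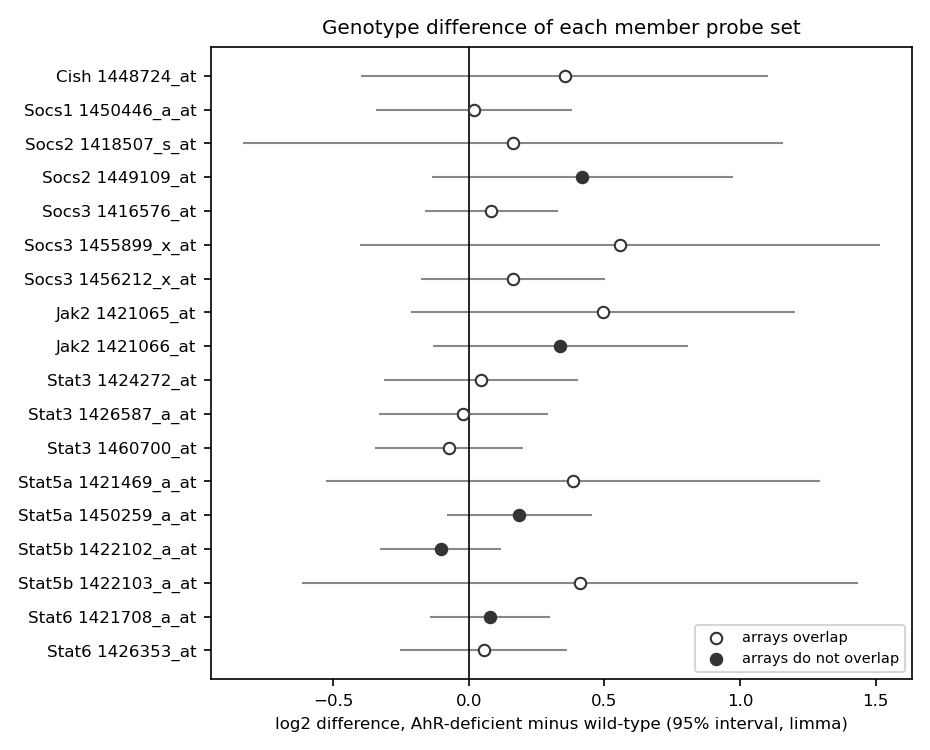
Log2 difference, AhR-deficient minus wild-type, of each member probe set with its 95% interval from limma (n = 2 arrays per genotype). All 18 intervals include 0, and filled points mark the 5 probe sets whose arrays did not overlap.

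Much of the size of these differences came with a single array. AhR-deficient replicate 1 was the highest array for 12 of the 18 member probe sets, while it was the highest for 30.8% of all probe sets. Wild-type replicate 2 was the lowest for 8 of the 18, against 24.9% of all. The gap between the AhR-deficient arrays exceeded that between the wild-type arrays for 13 of the 18. The share over all probe sets was not computed for this count, so it does not set the members apart. The genotype difference was larger than both gaps for 1 member probe set, the Stat5b probe set 1422102_a_at, whereas this held for 23.3% of all probe sets. Of the 18 differences, 15 were positive, where 11877 of all 22626 probe sets were. The members' median was 0.16 on the log2 scale, beside a median of 0.01 over all probe sets. Without AhR-deficient replicate 1, 12 were positive and the median was 0.04. The median stayed between 0.13 and 0.21 when any of the other arrays was left out. With that first array left out, the log2 difference was -0.02 for Cish, -0.09 for Stat5a (1421469_a_at) and -0.13 for Stat5b (1422103_a_at), so these turned in direction. The Socs2 probe set 1449109_at then differed by 0.14.

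The Langerhans cell marker Cd207 (langerin) read 11.21 and 11.71 in AhR-deficient cells, against 10.9995 and 12.06 in wild-type cells, and Epcam read 11.06 and 10.71 in AhR-deficient cells, against 11.02 and 11.38 in wild-type cells. Of the 10 Langerhans cell markers, 0 were called, 4 were higher and 1 lower without overlap (beside 18.8% and 16.6% of all genes), and 2, Itgax and Cdh1, lay below the median signal of all probe sets. The log2 of their summed signal was 14.07 and 13.96 in AhR-deficient cells, against 13.40 and 13.75 in wild-type cells. The MHC class II genes, whose product was used in the sort, stood highest by difference: H2-Aa read 12.47 and 12.32 in AhR-deficient cells, against 11.25 and 10.92 in wild-type cells (log2 difference 1.31, SE 0.14; limma adjusted p = 0.306). The difference was 1.24 (SE 0.27) for H2-Ab1 and 0.93 (SE 0.12) for Cd74, the chaperone of class II, while Cd24a, a surface glycoprotein, differed by -0.43 (SE 0.09), and none of them passed. The log2 of the summed signal of 13 keratinocyte markers, of which 9 lay below that median, was 9.98 and 9.13 in AhR-deficient cells, against 9.0045 and 9.10 in wild-type cells. Of these 13, 5 (Dsp, Krt14, Krt5, Krt10 and Sfn) were higher and 2 (Dsc3 and Ivl) lower without overlap, beside 18.8% and 16.6% of all genes. The largest difference was that of Dsp, at 1.32 (SE 0.43), and none passed. AhR-deficient replicate 1 stood high for the summed keratinocyte signal as for the members. Lor, a cornified envelope protein, read 8.53 and 6.72 in AhR-deficient cells, against 6.72 and 6.91 in wild-type cells, whereas Dsc3 and Ivl were lowest on that array. The same array was also highest in the sums for Langerhans cell markers and for B cell, neutrophil and macrophage markers, and lowest for T cell markers. Within the Langerhans cell list, the class II genes H2-Aa, H2-Ab1 and Cd74 were highest on it, as were Ly75, Ptprc, Itgax and Cdh1. Cd207, Epcam and Cd24a were instead highest on wild-type replicate 2, so the rank of this sum does not hold for those markers. For 10 markers of B cells, neutrophils and macrophages the sum was 9.83 and 9.25 in AhR-deficient cells, against 9.06 and 9.29 in wild-type cells. Of these 10, 4 were higher and 2 lower without overlap, beside 18.8% and 16.6% of all genes. C1qa, Lyz2 and Cd14, all highest on AhR-deficient replicate 1, differed by 1.10 (SE 0.39), 0.93 (SE 0.36) and 0.71 (SE 0.27). The macrophage marker Adgre1 differed by -0.89 (SE 0.39) without overlap, and none of the 10 passed. For 11 T cell markers, 8 of them below the median, it was 9.10 and 9.19 in AhR-deficient cells, against 9.36 and 9.24 in wild-type cells. The T cell receptor chains Cd3g and Cd3d and the adhesion molecule Cd2, all below that median, differed by -1.26 (SE 0.15), -0.56 (SE 0.15) and -0.70 (SE 0.12) without overlap, and none passed. Of the 11 T cell markers, 0 were higher and 4 lower without overlap, beside 18.8% and 16.6% of all genes. The other 7 overlapped, among them Cd3e, above that median, at -0.07 (SE 0.13). For 14 markers of melanocytes, mast cells and stroma the sums ran from 9.66 to 9.71. The 3′ minus 5′ control signal of Actb, a measure of RNA quality, was 2.34 and 2.61 in AhR-deficient cells, against 3.16 and 2.65 in wild-type cells. The same measure of Gapdh was 2.24 and 2.19 in AhR-deficient cells, against 2.60 and 1.97 in wild-type cells, with overlap. The part of Langerhans cell signal, keratinocyte signal, other cells or RNA quality in the members' values was not tested.

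**Figure D3:**
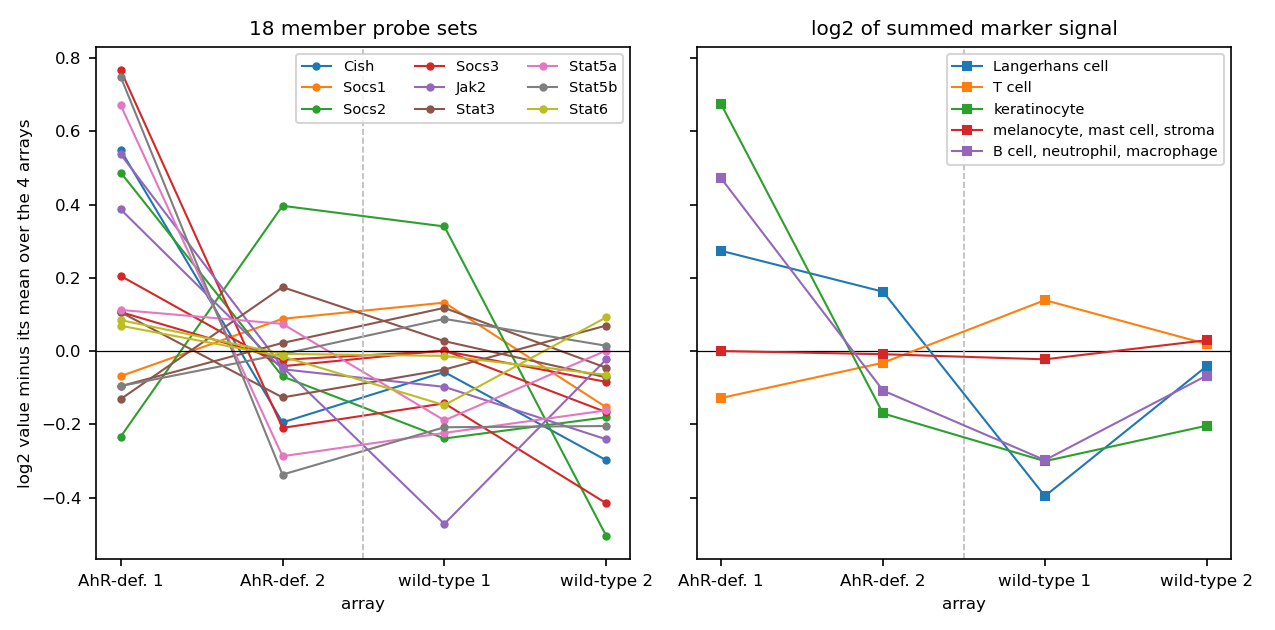
Log2 value minus its mean over the 4 arrays, for the 18 member probe sets (left) and for the log2 of the summed signal of 5 marker lists (right), by array, with AhR-deficient arrays left of the dashed line; lines only join the values of 1 probe set or list. AhR-deficient replicate 1 is high for many member probe sets and for the keratinocyte list, at 9.98 against 9.0045 to 9.13 on the other arrays. It is also the highest array for the B cell, neutrophil and macrophage list (9.83 against 9.06 to 9.29). The same holds for the Langerhans cell list (14.07 against 13.40 to 13.96). In these lists the class II genes, C1qa, Cd14 and Lyz2 are highest on it too. Cd207, Epcam, Cd24a and Adgre1 are highest on wild-type replicate 2.

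By 1 probe set per gene, the one with the highest mean, the largest difference among members was that of Socs2. The 5 genes whose values, each minus its mean, lay nearest to those of Socs2 over the 4 arrays were Reps1, Tec, S100a14, Nsmaf and Eppk1, at Euclidean distances of 0.03 to 0.07 on the log2 scale. Tec, a tyrosine kinase of haematopoietic cells, read 8.24 and 7.73 in AhR-deficient cells, against 7.54 and 7.62 in wild-type cells. Eppk1, the epithelial cytoskeletal linker epiplakin, read 5.99 and 5.51 in AhR-deficient cells, against 5.33 and 5.42 in wild-type cells. All 5 were highest on AhR-deficient replicate 1, which their choice by nearness to Socs2 had fixed. With 4 arrays and 12393 genes, close matches arise easily, and this is a description.

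The rest of the pathway was read through 9 lists, which together held 119 measured genes. None of the 119 was called over all probe sets (0 higher and 0 lower in limma), and 7 had an unadjusted p under 0.05, 5 of them higher and 2 lower, against 6.54% of all genes in either direction. Without overlap, 29 were higher and 20 lower in AhR-deficient cells, where 18.8% of all genes were higher and 16.6% lower. The median log2 difference was 0.04, beside 0.01 over all genes. The median over the 9 members was 0.34, with 8 of 9 positive, where 6473 of all 12393 genes were positive. Without AhR-deficient replicate 1, the log2 differences of these 9 probe sets ran from -0.14 (Stat3) to 0.14 (Socs2). Those between were -0.13 (Stat5b), -0.09 (Stat5a), -0.02 (Cish), 0.01 (Stat6), 0.02 (Socs3), 0.10 (Socs1) and 0.12 (Jak2).

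Among cytokine ligands, 0 of 27 were called and 24 lay below the median signal of all probe sets. Il15, a cytokine that sustains lymphocytes, read 7.05 and 7.28 in AhR-deficient cells, against 6.56 and 6.91 in wild-type cells (log2 difference 0.43, SE 0.16; limma adjusted p = 0.836). Tslp, made mainly by keratinocytes, read 5.98 and 4.73 in AhR-deficient cells, against 3.98 and 4.35 in wild-type cells (log2 difference 1.19, SE 0.45; limma adjusted p = 0.845). Neither gene's arrays overlapped. Tslp was highest on AhR-deficient replicate 1, the array also highest for the summed keratinocyte, Langerhans cell and B cell, neutrophil and macrophage markers. In the last 2 of these lists the class II genes, C1qa, Cd14 and Lyz2 were highest there. Cd207, Epcam, Cd24a and Adgre1 were highest on wild-type replicate 2. The part of any of these cell types in the Tslp values was not tested.

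Of 33 cytokine receptors, 0 were called and the median log2 difference was 0.05. The receptor chain Il15ra read 7.11 and 7.02 in AhR-deficient cells, against 7.41 and 7.30 in wild-type cells (log2 difference -0.29, SE 0.09; limma adjusted p = 0.754). Crlf2, the receptor chain for Tslp, read 7.64 and 7.49 in AhR-deficient cells, against 7.20 and 7.33 in wild-type cells (log2 difference 0.30, SE 0.10; limma adjusted p = 0.795). By these probe sets both genes were free of overlap, in opposite directions, but the other Il15ra probe set, 1422397_a_at, differed by 0.08 (SE 0.08), also without overlap. Il4ra, which feeds Stat6, differed by 0.16 (SE 0.12), and its other probe sets by 0.19 and 0.10.

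Among the other kinases and STATs, 0 of 6 were called. Stat4, the mediator of interleukin-12 signals, read 7.48 and 8.49 in AhR-deficient cells, against 8.78 and 8.91 in wild-type cells (log2 difference -0.86, SE 0.36; limma adjusted p = 0.857). Both AhR-deficient arrays were lower, replicate 1 by far the more. Stat2, a component of the interferon response complex, differed by 0.26 (SE 0.11), Jak1 by 0.34 (SE 0.22) and Tyk2 by 0.10 (SE 0.23), none of which passed. The other Jak1 probe sets, 1433803_at and 1433804_at, each differed by -0.10 and overlapped.

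Of the other SOCS genes 0 of 4 were called, with a median log2 difference of 0.02. Socs5, linked to interleukin-4 and EGF receptor signalling, read 6.17 and 6.56 in AhR-deficient cells, against 6.77 and 6.76 in wild-type cells by 1423349_at (log2 difference -0.40, SE 0.15; limma adjusted p = 0.834). By 1423350_at it read 5.97 and 5.69 in AhR-deficient cells, against 6.48 and 6.47 in wild-type cells (log2 difference -0.64, SE 0.12; limma adjusted p = 0.553). Both Socs5 probe sets were lower without overlap, and neither passed. Socs4 differed by 0.10 (SE 0.17). Among subunits of the SOCS box ubiquitin ligases, 0 of 4 were called. Rnf7, a RING subunit that pairs with Cul5, differed by -0.21 (SE 0.08) by its brightest probe set and by 0.05 (SE 0.09) by the other, and the scaffold Cul2 by 0.31 (SE 0.14). The other Cul2 probe set, 1419765_at, differed by 0.37 (SE 0.08; limma adjusted p = 0.606), and neither Cul2 probe set overlapped or passed. The members of this list went both ways.

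The other negative regulators had 0 of 14 called and a median log2 difference of 0.05. Ptpn1, the phosphatase that acts on Jak2 and Tyk2, read 7.50 and 6.90 in AhR-deficient cells, against 6.67 and 6.83 in wild-type cells (log2 difference 0.45, SE 0.23). Cbl, a ubiquitin ligase of receptor tyrosine kinases, read 8.45 and 7.52 in AhR-deficient cells, against 7.19 and 7.60 in wild-type cells (log2 difference 0.59, SE 0.35). AhR-deficient replicate 1 was the highest array by these probe sets. The other Cbl probe set, 1450457_at, read 6.03 and 6.27 in AhR-deficient cells, against 5.84 and 5.72 in wild-type cells, without overlap and with replicate 2 the highest (log2 difference 0.37, SE 0.12; limma adjusted p = 0.795). The other Ptpn1 probe set, 1438670_at, differed by 0.16 (SE 0.11), with overlap.

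Genes that respond to the STATs were not called either. In the Stat5 list, with 0 of 10 called and a median log2 difference of -0.13, 2 were higher and 4 lower without overlap, beside 18.8% and 16.6% of all genes. Pim3, a survival kinase, read 7.77 and 7.76 in AhR-deficient cells, against 8.05 and 8.09 in wild-type cells (log2 difference -0.30, SE 0.07; limma adjusted p = 0.685). Il2ra, the alpha chain of the interleukin-2 receptor, read 8.31 and 7.65 in AhR-deficient cells, against 8.87 and 8.36 in wild-type cells (log2 difference -0.63, SE 0.30), a difference of -0.30 without AhR-deficient replicate 2. These arrays did not overlap. The other probe sets showed less: Pim3 differed by 0.04 (1438956_x_at) and 0.01 (1451069_at), both with overlap, and Il2ra by -0.06 (1420691_at). In the Stat3 list, 0 of 11 were called, and 4 were higher and 0 lower without overlap, beside the same 18.8% and 16.6%. Nfil3, a basic leucine zipper factor, read 8.06 and 7.998 in AhR-deficient cells, against 7.54 and 7.34 in wild-type cells (log2 difference 0.59, SE 0.10; limma adjusted p = 0.533). Il1rn, the interleukin-1 receptor antagonist, differed by 0.38 (SE 0.10) by its brightest probe set and by 0.73 (SE 0.13) and 0.13 (SE 0.09) by the others. In the Stat6 list, 0 of 14 were called, and 2 were higher and 2 lower without overlap. Mgl2, a C-type lectin of dermal dendritic cells and macrophages, read 5.97 and 6.11 in AhR-deficient cells, against 5.51 and 5.23 in wild-type cells (log2 difference 0.67, SE 0.13; limma adjusted p = 0.571), and Clec10a, a related lectin, differed by 0.25 (SE 0.08).

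**Figure D4:**
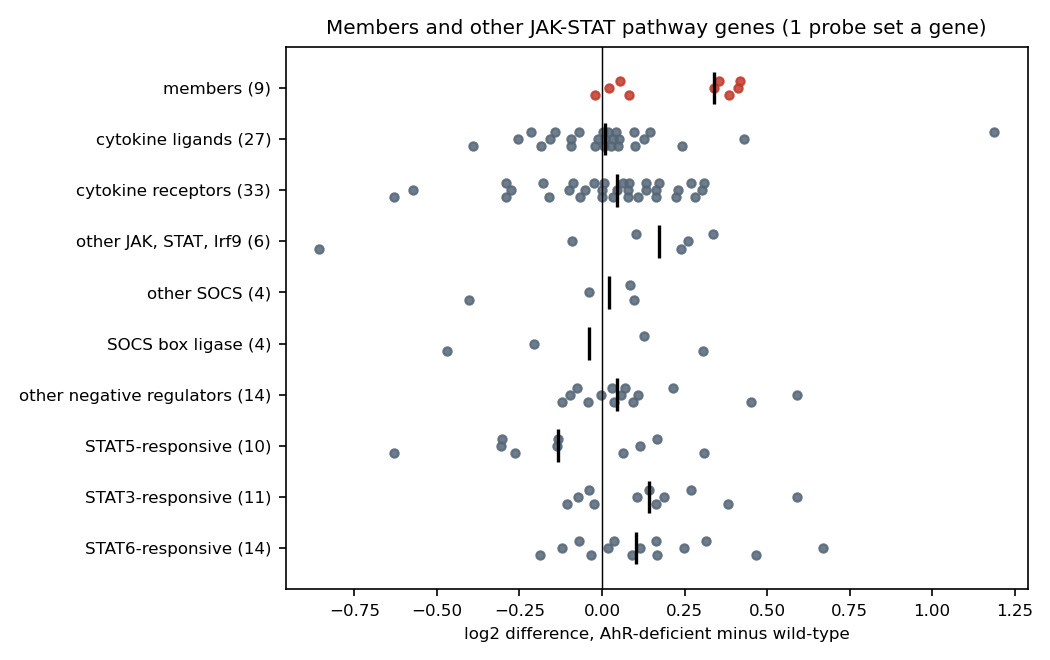
Log2 difference, AhR-deficient minus wild-type, for the 9 members (red) and for the measured genes of 9 other pathway lists (grey), 1 probe set per gene, with black bars at the medians. The members' median is 0.34 and that of the 119 listed genes together is 0.04. Without AhR-deficient replicate 1 the members' log2 differences run from -0.14 to 0.14. No gene shown passed the test.

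For scale, Ahrr, the AhR repressor and a known target of the receptor, read 5.32 and 5.09 in AhR-deficient cells, against 8.26 and 8.38 in wild-type cells, and it fell by 3.11 on the log2 scale (SE 0.11; limma adjusted p = 0.0403). The call was lost with each array left out in turn (adjusted p 0.198 to 0.469), with the replicate block (adjusted p = 0.895) and with 16 added on the linear scale (adjusted p = 0.0902), while the log2 difference stayed between -3.22 and -2.66. The lowest bound of any member's interval was -0.83, for Socs2 by 1418507_s_at, so a fall of the size of Ahrr lay outside the intervals of all 18 member probe sets. Ahrr was among only 4 probe sets called, and smaller falls were not excluded. The interval of Stat5b by 1422103_a_at, for example, reached -0.61. Ahr itself read 8.55 and 8.60 in AhR-deficient cells, against 7.61 and 8.23 in wild-type cells. As the sources do not place its probe sets within exon 2, this does not check the labels.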

How the data were processed

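Log2 expression values per probe set were used as deposited, and per the submitters' processing notes the authors made them with affy and RMA, a method of background correction, quantile normalisation across arrays and probe set summary. For these tools, versions are not given in the sources used here. Among 22690 probe sets, 64 controls of the manufacturer were dropped. Names came from the platform annotation, and only the 20380 probe sets with 1 symbol were named (691 had several and 1555 had none). Genotypes were compared over all 22626 probe sets by lmFit and eBayes of limma (version 3.58.1, run in R version 4.3.3), with 2 residual and 2.27 prior degrees of freedom. The test was two-sided, with Benjamini-Hochberg adjustment and calls at 0.05. Differences are AhR-deficient minus wild-type, SE is limma's moderated standard error, and 2 arrays per genotype limit the precision. For lists, the probe set of highest mean over the arrays stood for its gene. All member probe sets were named. From each pathway list the genes past the threshold, or else the 2 with the smallest p, were named, together with Jak1, Tyk2, Stat2, Ahr, Ahrr and Il4ra, and the 5 genes nearest to the member that differed most. Those other probe sets of named genes that are given, the marker values given and the controls were added after their values were seen. Members and lists were chosen with earlier results of these data known. Of the steps, only the limma fit was tested on simulated data, with planted differences larger than any seen among the members. Alternatives were a replicate block, other variance priors, leaving out probe sets below the median signal, rescaling, adding 16 on the linear scale, array weights, averaging a gene's probe sets and leaving out each array.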

Additional observations from a re-analysis of the deposited data

How the results depend on the processing

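No member was called under any of the alternatives run. Of 604 recomputed differences of members and named genes, 582 kept their direction and their side of the threshold, 16 turned in direction and 6 lost a call, all 6 of Ahrr, whose log2 difference stayed between -3.22 and -2.66. All 16 turns came from leaving out an array, none from another scaling, prior, filter, weighting or averaging. The lowest and highest log2 differences with 1 array left out were -0.017 and 0.73 for Cish, -0.12 and 0.16 for Socs1, -0.26 and 0.59 for Socs2 (1418507_s_at), and -0.11 and 0.20, -0.14 and 0.10, and -0.15 and 0.0087 for Stat3 (1424272_at, 1426587_a_at and 1460700_at). They were -0.094 and 0.86 for Stat5a (1421469_a_at), -0.13 and 0.95 for Stat5b (1422103_a_at), -0.065 and 0.17 for Stat6 (1426353_at), -0.085 and 0.28 for Socs4, and -0.21 and 0.42 for Tyk2. A fit with 1 array in a genotype assumes that it varies like the others, and the number of member probe sets without overlap, 5 with all arrays, was 9 to 15, as fewer arrays overlap less often. Over all probe sets, 4 were called in limma, 0 with the replicate block (934 at an unadjusted p under 0.05), 0 with any array left out, 0 with 16 added on the linear scale, 2 with probe sets below the median signal left out and 8 with a trend in eBayes; the cause was not tested. Deviations of same-numbered arrays correlated at -0.31, and crossing the numbers, chosen after seeing the data, also gave 0 calls (1789 unadjusted). Array weights were 0.999 for both AhR-deficient arrays and 1.001 for both wild-type arrays. With 2 arrays per genotype, both deviate equally from their mean, so these weights could not single out an array.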
